A study of Saccharomyces cerevisiae with 6 samples.

Results

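Inorganic phosphate enters budding yeast through membrane transporters, and what the cell does not use is stored in the vacuole as chains of polyphosphate. The 10 genes described here cover both steps. They comprise the plasma membrane transporters *PHO84*, *PHO89*, *PHO87* and *PHO90*, the vacuolar transporter *PHO91*, the polyphosphate polymerase genes *VTC1*, *VTC2*, *VTC3* and *VTC4*, and *SPL2*, a small regulator of *PHO87*. They were picked by systematic identifier, 10 of the 7445 features in the count table, and all 10 were found and tested. The list was drawn up with results of these cultures already known, and so the differences between auxin- and mock-treated cultures are given for these genes as a description, without a *P*-value.

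RNA was sequenced from 6 cultures of *S. cerevisiae*, of which 3 received auxin at 500 µM over 1 h and 3 received a mock. All were strain PDW2798 in the W303 background (W303-1A in the study's methods), carrying the degron allele *RIO1-AID::KanMX4* together with the construct *PADH1-OsTIR1-9myc::URA3*, and were grown in YPDA at 25 °C. The auxin-inducible degron on Rio1, an atypical protein kinase, lets the plant F-box protein OsTIR1, made here from the *ADH1* promoter, mark Rio1 for destruction once auxin is added. Mock-treated cells carried the same degron and OsTIR1, and auxin-treated cells without the degron were not analysed here, so auxin itself and the loss of Rio1 cannot be told apart. The study's methods give a lower auxin dose for the later part of the hour, and a treatment label names auxin for all 6 cultures, so the groups follow the label that separates them. The degron acts on the protein, and *RIO1* mRNA is therefore no check of the labels. It stood at 40.9, 39.4 and 42.7 CPM (counts per 1000000 of the scaled total) with auxin, against 19.8, 21.9 and 22.8 CPM with the mock. Totals lay between 110119744 and 125303818 counts. These totals far exceed the number of mapped read pairs per sample that the study states, and the reason was not determined. The 4 *MATa* marker genes lay between 114.0 and 720.2 CPM over all cultures, and the 3 *MATalpha* markers at no more than 2.04 CPM.

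Phosphate supply is sensed through the PHO pathway. When phosphate is scarce, the inhibitor Pho81 holds back the cyclin-dependent kinase Pho80-Pho85, the transcription factor Pho4 stays in the nucleus with Pho2, and high-affinity transporters, secreted phosphatases and polyphosphate synthesis are induced. When phosphate is plentiful, as in rich medium, Pho80-Pho85 phosphorylates Pho4, and uptake relies more on the low-affinity carriers Pho87 and Pho90. Several of these proteins bear an SPX domain, which binds inositol pyrophosphates and so reads the phosphate status of the cell.

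The sequences upstream of the genes are shown first, with the words that Pho4 is known to bind. Pho4 binds the core CACGTG strongly and CACGTT more weakly, and the centromere and methionine gene factor Cbf1 binds CACGTG as well. Both words were searched on both strands over the 1000 bases before each start codon. CACGTG is its own reverse complement, CACGTT reads AACGTG on the other strand, and no 6 bases can match both. CACGTG was present upstream of 9 of the 10 genes, at 16 positions, against 10.8% of 5996 protein-coding genes. *PHO84*, *VTC3*, *VTC4* and *SPL2* had at least 2 copies, which 1.33% of genes have. CACGTT was found upstream of 5 genes, at 6 positions, against 28.5% of genes. In the narrower window from 250 bases before to 50 bases after the start codon, 5 of the 10 genes held CACGTG, against 2.92% of 6001 genes, and none held CACGTT, which 9.12% hold. A match shows only that the letters are there, and binding was not measured.

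The stretches that hold most of these sites follow, written 5′ to 3′ on the strand of the gene, with the CACGTG and CACGTT cores in capitals. They were read from reference assembly R64, which is strain S288C, and the W303-1A cultures may differ from it.
PHO84: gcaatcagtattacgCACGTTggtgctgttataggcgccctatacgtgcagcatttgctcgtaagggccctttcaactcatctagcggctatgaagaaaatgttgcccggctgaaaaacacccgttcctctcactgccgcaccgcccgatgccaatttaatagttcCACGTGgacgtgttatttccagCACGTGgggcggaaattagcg
PHO89: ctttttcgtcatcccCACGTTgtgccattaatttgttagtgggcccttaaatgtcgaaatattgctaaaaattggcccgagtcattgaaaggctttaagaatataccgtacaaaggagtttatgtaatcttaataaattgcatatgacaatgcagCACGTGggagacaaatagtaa
SPL2: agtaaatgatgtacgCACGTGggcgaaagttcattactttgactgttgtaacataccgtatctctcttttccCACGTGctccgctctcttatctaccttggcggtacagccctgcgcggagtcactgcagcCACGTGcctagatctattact
VTC3: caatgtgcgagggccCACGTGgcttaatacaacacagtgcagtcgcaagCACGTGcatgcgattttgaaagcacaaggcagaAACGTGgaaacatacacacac
VTC4: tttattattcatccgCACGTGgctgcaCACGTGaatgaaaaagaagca
The *PHO84* stretch (chrXIII:26194-26402, minus strand) holds the cores 414, 436 and 587 bases before the start codon, the last of them the weaker word. A further CACGTG lies at 880 and a further CACGTT at 262. All 5 lie beyond the 237 bases that separate *PHO84* from its neighbour *YML122C*, which is on the same strand. *YML122C* itself was near the floor, at a mean of 0.5955 CPM with auxin, against 0.4984 CPM with the mock. In *PHO89* (chrII:798825-799000, minus strand) the strong core is at 323 and the weaker at 463. *SPL2* (chrVIII:375111-375262, minus strand) had the most copies of CACGTG, at 31, 90 and 147 in the printed stretch and again at 361, and a CACGTT at 903. *VTC3* (chrXVI:517276-517378, minus strand) had strong cores at 311 and 345 and a weaker core at 278. In *VTC4* (chrX:413492-413539, minus strand) the strong cores at 113 and 125 are separated by 6 bases.

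Single CACGTG cores stood upstream of *PHO87*, *PHO91*, *VTC1* and *VTC2*, printed here with 9 bases on each side for comparison.
PHO87: atgatttcgCACGTGggaaaagta
PHO91: tcggggatcCACGTGatggctttt
VTC1: agatattagCACGTGtctcggaga
VTC2: aaaaaaaccCACGTGctgcttgga
These cores lie 132 bases before the start codon in *PHO87* (chrIII:197312-197317), 201 in *PHO91* (chrXIV:651908-651913), 157 in *VTC1* (chrV:302649-302654) and 311 in *VTC2* (chrVI:131499-131504). *PHO87* has a CACGTT at 642 as well. *PHO90* had neither word in its 1000 bases. Of the 7 genes that were lower with auxin, all 7 had a CACGTG, and of the 3 others, *PHO87* and *PHO91* had 1 and *PHO90* had none, so the presence of the core alone did not separate the genes by direction.

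**Figure D1:**
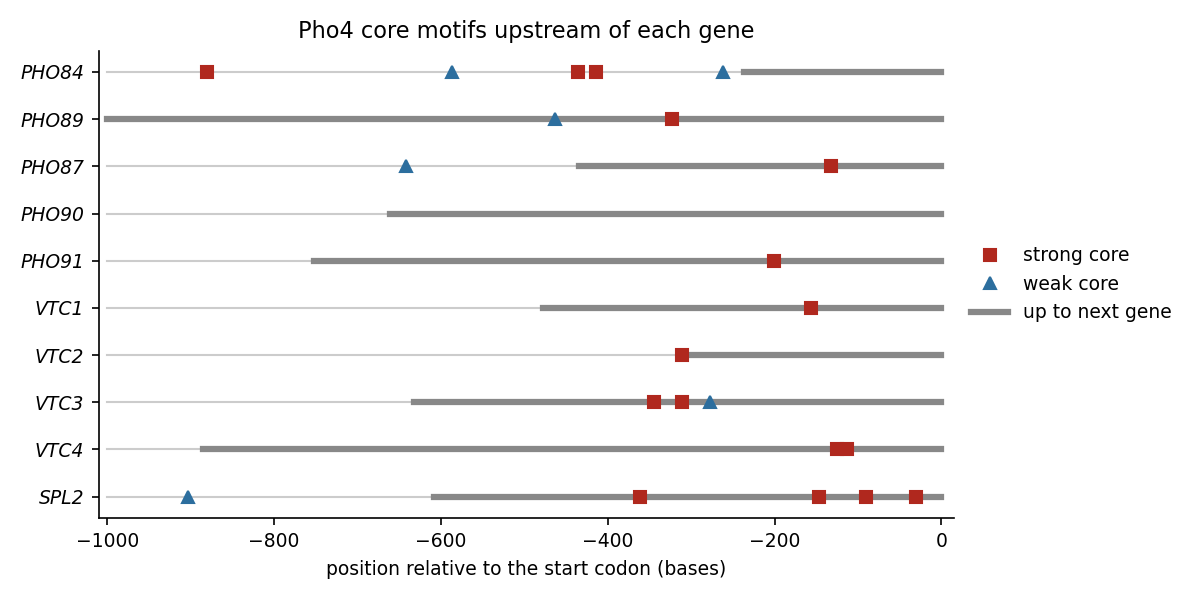
Positions of CACGTG (strong core, squares) and CACGTT (weak core, triangles) in the 1000 bases before the start codon of each gene, with the x axis in bases relative to the start codon and the thick bar reaching to the next annotated gene. The 4 CACGTG cores of *SPL2* and the 2 of *VTC4* lie within the bar, the 5 cores of *PHO84* lie beyond it, and *PHO90* has none.

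Over the 10 genes, 7 were lower with auxin, 2 were higher and *PHO91* was the same within the spread of the cultures. Log2 fold changes of auxin over mock lay between -2.35 (*PHO89*) and 0.37 (*PHO90*), with a median of -0.63, against 0.00 over all 6397 tested features. That 0.00, and the shares of features higher and lower given next, depend on the TMM scaling of the libraries. Scaling by total counts alone moved the median of all features to 0.25. In 9 of the 10 genes the auxin and mock cultures did not overlap, as in 78.6% of all features. The same 9 passed an adjusted *P* of 0.05 in edgeR's quasi-likelihood test, 2 of them higher and 7 lower. That test passed 77.0% of all features, 38.5% higher and 38.5% lower, and since the list was chosen on this contrast nothing is read from the counts. *PHO89* and *SPL2* were also past an absolute log2 fold change of 1, both lower. Of all features, 10.3% were past it in either direction, 2.55% lower and 7.72% higher. In RNA from whole cultures, fewer cells that express a gene and less RNA per cell cannot be told apart.

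**Figure D2:**
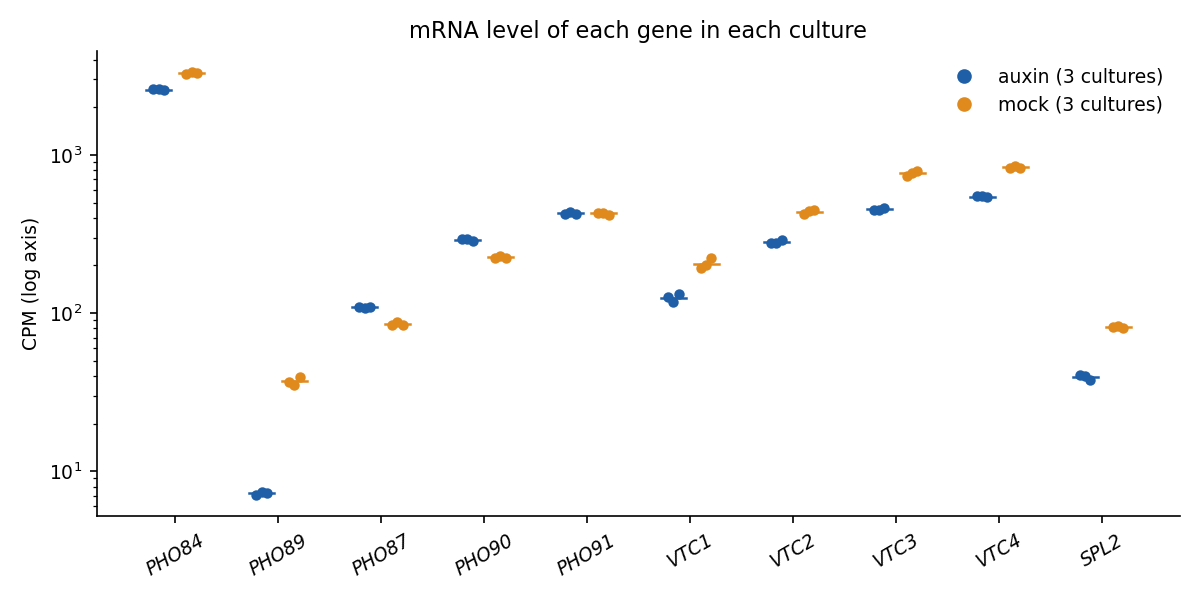
CPM of each gene in each culture on a log axis, auxin left of mock, with each point 1 culture and each bar the mean of 3. *PHO84* is the highest in all 6 cultures, *PHO89* lies at 7.07 to 7.37 CPM with auxin, and *PHO91* is the gene whose groups overlap.

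The high-affinity transporters were both lower with auxin, by very different amounts. *PHO84* (YML123C, chrXIII:24037-25800, minus strand) encodes the main proton-coupled phosphate carrier of the plasma membrane. Its mRNA measured 2595, 2613 and 2563 CPM in the auxin-treated cultures, against 3237, 3350 and 3284 CPM in the mock-treated cultures. Every auxin value was under every mock value, at 0.787 of the mock level, a log2 fold change of -0.35 ± 0.03 (SE, n = 3 per group). Scaled by total counts alone, *PHO84* was at -0.10. *PHO84* was the most abundant of the 10 mRNAs in both treatments. An annotated antisense RNA gene overlaps it, and reads on that strand were not analysed here.

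*PHO89* (YBR296C, chrII:796798-798522, minus strand) encodes the sodium-coupled high-affinity carrier, which works best at alkaline pH. It was read at 7.07, 7.37 and 7.28 CPM with auxin, against 36.6, 35.3 and 39.3 CPM with the mock. These levels rest on 928 to 939 counts per auxin culture and 3942 to 3998 per mock culture. The gap between the groups was far wider than the spread inside either, with 7.243 ± 0.153 CPM for auxin and 37.05 ± 2.05 CPM for the mock (SD, n = 3 each), and the log2 fold change was -2.35 ± 0.05 (SE), which is 5.11-fold lower. No other gene of the 10 differed as much. The ratio of *PHO84* to *PHO89* mRNA, each as CPM per kb of coding sequence, was 350 ± 7.78 with auxin, against 87.0 ± 5.57 with the mock (SD, n = 3 each).

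*SPL2* (YHR136C, chrVIII:374654-375100, minus strand) encodes a small protein that acts on Pho87 through its SPX domain and lowers low-affinity uptake when phosphate is scarce. Its mRNA was at 40.7, 39.8 and 38.0 CPM with auxin, against 82.2, 83.2 and 80.8 CPM with the mock. The groups stood apart by 2.08-fold, a log2 fold change of -1.05 ± 0.03 (SE). This value sits just past the fold limit of 1, and when counts were scaled by the total alone it was -0.81.

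The low-affinity transporters went the other way. *PHO87* (YCR037C, chrIII:194414-197185, minus strand) and *PHO90* (YJL198W, chrX:60844-63489, plus strand) encode related plasma membrane carriers with an SPX domain, and their coding sequences are identical at 65% of positions of the longer gene. *PHO87* mRNA measured 109.4, 108.4 and 109.1 CPM in auxin-treated cells, against 83.9, 87.5 and 84.2 CPM in mock-treated cells. *PHO90* was at 292.7, 293.6 and 286.7 CPM with auxin, against 224.2, 229.9 and 221.5 CPM with the mock. Both were higher with auxin, without overlap and in nearly equal proportion, at log2 fold changes of 0.35 ± 0.02 for *PHO87* and 0.37 ± 0.02 for *PHO90* (SE). Scaling by the total alone put them at 0.60 and 0.62. Length-scaled *PHO90* mRNA was accordingly 2.80 ± 0.0429 times that of *PHO87* with auxin, against 2.77 ± 0.0262 times with the mock (SD, n = 3 each).

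*PHO91* (YNR013C, chrXIV:649028-651712, minus strand) is the third SPX-domain carrier of this family and moves phosphate out of the vacuole. It was read at 425.3, 437.6 and 425.4 CPM with auxin, against 432.0, 431.6 and 416.2 CPM with the mock. The groups overlapped, and the log2 fold change was 0.01 ± 0.03 (SE). Scaling by the total alone put it at 0.26, since that scaling moved the median of all features to 0.25.

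Taken as sums, *PHO84* and *PHO89* gave 2598 ± 25.5 CPM with auxin, against 3327 ± 56.2 CPM with the mock, and *PHO87* and *PHO90* gave 400 ± 3.59 CPM with auxin, against 310 ± 6.17 CPM with the mock (SD, n = 3 each). The ratio of the high-affinity to the low-affinity plasma membrane mRNAs, each divided by its coding length, was 9.83, 9.90 and 9.86 in the auxin-treated cultures, against 16.1, 16.2 and 16.5 in the mock-treated cultures. Such a ratio within a culture does not depend on how libraries are scaled. *SPL2* and its target stood in a ratio of 2.25 ± 0.0763 with auxin, against 5.97 ± 0.0907 with the mock, so that the balance between *SPL2* and *PHO87* mRNA shifted more than either mRNA alone.

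Among the 5 transporter mRNAs of each culture, scaled for length, *PHO84* made up 82.4 ± 0.0571% with auxin, against 86.3 ± 0.202% with the mock. *PHO89* accounted for 0.236 ± 0.00504% with auxin, against 0.994 ± 0.0637%. These 2 shares were smaller with auxin and the other 3 were larger. *PHO90* took 6.17 ± 0.0288% with auxin, against 3.94 ± 0.0449% with the mock. *PHO87* took 2.21 ± 0.03% with auxin, against 1.42 ± 0.0127%, and *PHO91* took 8.98 ± 0.0894%, against 7.35 ± 0.178% (SD, n = 3 each). In each of the 5 transporters the shares of the auxin and mock cultures did not overlap, *PHO91* included, whose own level did not differ.

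**Figure D3:**
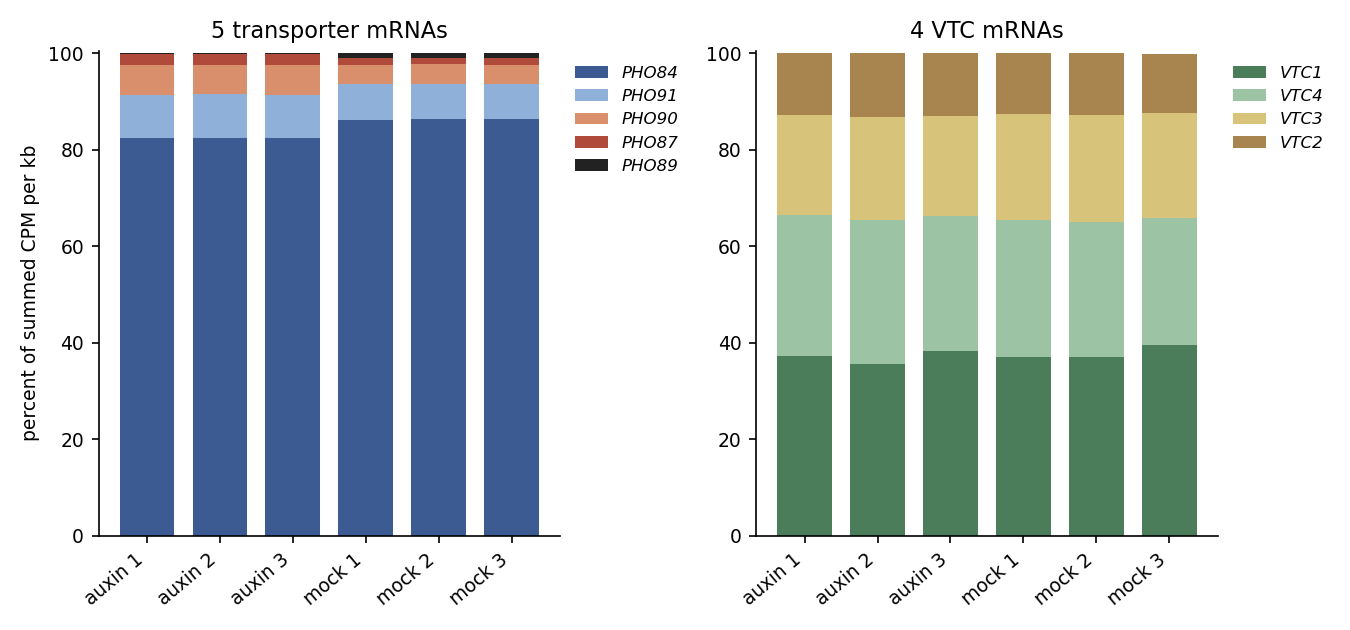
Percent of summed CPM per kb taken by each gene in each culture, auxin cultures left of mock cultures, for the 5 transporter mRNAs on the left and the 4 *VTC* mRNAs on the right. The *PHO84* share is 82.4 to 82.5% with auxin and 86.1 to 86.4% with the mock, while the *VTC1* and *VTC4* shares overlap between the treatments.

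The polyphosphate polymerase genes were lower together. The VTC complex sits mainly in the vacuolar membrane, builds polyphosphate from ATP and passes the growing chain into the vacuole. Its 4 mRNAs summed to 1405, 1394 and 1422 CPM with auxin, against 2182, 2267 and 2283 CPM with the mock, 0.627 of the mock level. All 4 were lower by similar amounts, with log2 fold changes between -0.75 and -0.61. In none did the groups overlap, as in 78.6% of all features, 39.3% of them lower without overlap. Nothing is read from that count. Under total-count scaling they were lower by less, with log2 fold changes between -0.50 and -0.37.

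*VTC4* (YJL012C, chrX:411234-413399, minus strand) encodes the catalytic subunit. It measured 550.5, 547.0 and 538.4 CPM with auxin, against 828.9, 847.9 and 826.5 CPM with the mock. That is 0.654 of the mock level, a log2 fold change of -0.61 ± 0.02 (SE). *VTC1* (YER072W, chrV:302806-303195, plus strand) encodes the small membrane subunit, which lacks an SPX domain. Its values were 126.0, 117.4 and 132.1 CPM with auxin, against 193.5, 201.1 and 222.1 CPM with the mock. Replicates of *VTC1* scattered most among the 10 genes, with a coefficient of variation of 5.89% with auxin and 7.20% with the mock, and the log2 fold change of -0.72 ± 0.06 (SE) still exceeded that spread.

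*VTC2* (YFL004W, chrVI:131810-134296, plus strand) and *VTC3* (YPL019C, chrXVI:514511-517018, minus strand) encode alternative accessory subunits, with 64.4% of the longer coding sequence identical. Vtc3-containing complexes reside at the vacuole, and Vtc2-containing complexes are found at the cell periphery and move to the vacuole when phosphate is scarce. *VTC2* was at 279.0, 278.3 and 288.1 CPM with auxin, against 424.3, 445.0 and 447.0 CPM with the mock. *VTC3* was at 450.0, 451.1 and 463.2 CPM with auxin, against 735.4, 773.4 and 787.9 CPM with the mock. Both were lower, by a log2 fold change of -0.64 ± 0.03 for *VTC2* and -0.75 ± 0.03 for *VTC3* (SE).

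Because *VTC3* was lower by slightly more, its part of the length-scaled *VTC2* and *VTC3* RNA was 61.5, 61.6 and 61.5% with auxin, against 63.2, 63.3 and 63.6% with the mock. The difference was small, -1.82 percentage points, but every auxin culture lay under every mock culture. Across the whole complex *VTC1* took 37.0 ± 1.28% with auxin, against 37.8 ± 1.41% with the mock, and *VTC4* took 29.0 ± 0.957%, against 27.7 ± 1.11% (SD, n = 3 each). The proportions of the 4 subunit mRNAs thus stayed within a few percentage points while their sum was lower.

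**Figure D4:**
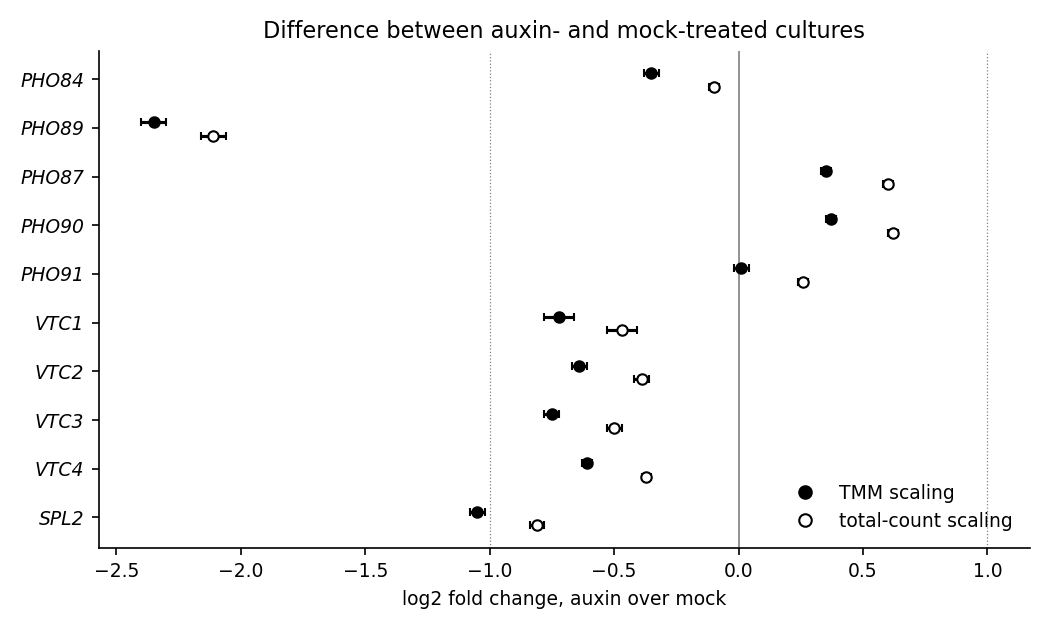
Log2 fold change of auxin over mock for each gene (x axis) under TMM scaling (filled) and scaling by total counts alone (open), with bars of 1 standard error and dotted lines at -1 and 1. All 7 lower genes stay under 0 under both scalings, *PHO84* lies at -0.10 and *PHO91* at 0.26 under total counts, and *SPL2* moves inside the dotted line.

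Levels were compared between genes per kb of gene length and ranked among 5829 genes. In the genes described here gene length is the coding length, which need not hold for other ranked genes. *PHO84* had 1468 ± 14.4 CPM per kb with auxin, against 1865 ± 32.3 with the mock, at rank 56 with auxin and rank 74 with the mock. *VTC1* came next with 321.0 ± 18.9 with auxin, against 527.1 ± 37.9, followed by *VTC4* with 251.8 ± 2.89, against 385.2 ± 5.42, and *VTC3* with 181.3 ± 2.93, against 305.2 ± 10.8 CPM per kb (SD, n = 3 each). These 4 kept their places in both treatments. The coding sequences of *VTC1* and *SPL2* are short (390 and 447 bases), so their places depend on the division by length. Undivided, *VTC1* was the lowest of the *VTC* mRNAs, with 125.2 CPM with auxin, against 205.6 CPM with the mock.

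The middle of the order was rearranged. *SPL2* had 88.4 ± 3.01 CPM per kb with auxin, against 183.6 ± 2.72 with the mock, and stood in place 8 of the 10 with auxin and in place 5 with the mock. *PHO91* held 159.9 ± 2.63 with auxin, against 158.9 ± 3.36, and stood in place 5 with auxin and place 7 with the mock. *VTC2* (113.3 ± 2.20, against 176.4 ± 5.06) was in place 6 in both, and *PHO90* (110.0 ± 1.42, against 85.1 ± 1.62) in place 7 with auxin and place 8 with the mock. *PHO87* had 39.3 ± 0.193 CPM per kb with auxin, against 30.7 ± 0.722, and *PHO89* was last in both with 4.2 ± 0.0886, against 21.5 ± 1.19. No neighbours in either order had overlapping cultures, although *VTC2* and *PHO90* came close with auxin and *SPL2* and *VTC2* with the mock. *PHO89* ranked 5341 of 5829 genes with auxin, against 4098 with the mock.

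Each of the 10 genes has 1 coding exon. None of the 100-base stretches of any of them recurs elsewhere in R64, so reads of that length belong to a single gene. Counting used strand as far as nested genes show, since all 8 genes nested in another gene on the opposite strand had counts, whereas 41 of the 65 that share the strand of the gene around them received no count.

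In 6 genes the upstream neighbour is transcribed away from them and faces the same intergenic stretch, and none of the neighbours that passed the adjusted *P* moved in the same direction. By the same adjusted *P*, 38.5% of all features were higher and 38.5% lower, so nothing is read from these directions. *ARO9*, an aromatic aminotransferase gene 608 bases from *SPL2*, rose by a log2 fold change of 0.58 ± 0.03 (SE, adjusted *P* = 9.8e-08, edgeR's quasi-likelihood test with Benjamini-Hochberg adjustment over all 6397 features) while *SPL2* was lower. *CTF19*, a kinetochore gene 632 bases from *VTC3*, had a log2 fold change of -0.07 ± 0.03 (adjusted *P* = 0.058). It went in the direction of *VTC3*, and its auxin and mock cultures did not overlap. *RUF20*, an RNA gene 306 bases from *VTC2* whose end covers part of its CACGTG core, rose by 0.87 ± 0.10 (adjusted *P* = 2.3e-05) from a level of a few CPM. *TDA2* next to *VTC1* had a log2 fold change of 0.22 (adjusted *P* = 0.049), with overlapping cultures. *MBB1* next to *PHO90* fell by 0.41 on the log2 scale (adjusted *P* = 0.0047), and *YNR014W* next to *PHO91* had a log2 fold change of 0.15 (adjusted *P* = 0.23). These neighbours were chosen by position.

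The rest of the phosphate pathway was read from 4 lists, which hold none of the 10 genes. Of their 32 genes, 23 fell, 2 rose and 7 did not pass the adjusted *P*, with a median log2 fold change of -0.27. These directions and this median were read under TMM scaling. Scaling by total counts alone moved the median of all features to 0.25, a shift near the size of the list median. The directions within the lists were not counted under that scaling. Past a log2 fold change of 1 there were 6, all lower, against 2.55% of all features. By the adjusted *P* alone, 38.5% of all features were lower, 38.5% higher and 77.0% either. The lists were also written with earlier results of these cultures known, so their counts and *P*-values describe single genes in the fit over all 6397 features (edgeR's quasi-likelihood test, Benjamini-Hochberg adjustment) and are not independent evidence of a direction of the lists.

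Among 8 phosphatase genes 6 fell, 1 rose and 1 did not pass, with a median log2 fold change of -0.50. *PHO5*, the main secreted acid phosphatase, fell to 78.7, 80.5 and 78.8 CPM with auxin, against 545.0, 565.6 and 532.9 CPM with the mock (log2 fold change -2.79 ± 0.03, adjusted *P* = 3.1e-11). *PHO11* fell to 37.12 ± 0.682 CPM with auxin, against 144.7 ± 6.17 CPM with the mock (log2 fold change -1.96, adjusted *P* = 6.7e-10). *PHO12* fell to 177.6 ± 2.49 CPM, against 513.9 ± 20.9 CPM (log2 fold change -1.53, adjusted *P* = 8e-10). These 2 secreted acid phosphatase genes are near-identical copies, and reads they share could not be assigned, so each value on its own is uncertain. *PHO3*, the constitutive acid phosphatase next to *PHO5*, rose to 342.6 ± 0.101 CPM, against 280.2 ± 11.2 (log2 fold change 0.29, adjusted *P* = 1.4e-05).

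Helpers and other carriers included 3 genes with large differences. *GIT1*, the permease for glycerophosphoinositol, which phosphate-starved cells take up, fell to 15.6, 14.7 and 14.8 CPM with auxin, against 68.6, 66.8 and 56.8 CPM with the mock (log2 fold change -2.09 ± 0.07, adjusted *P* = 5.9e-09). *PHM6*, a phosphate-regulated gene of unknown function, fell to 8.142 ± 0.146 CPM, against 20.64 ± 0.956 (log2 fold change -1.34, adjusted *P* = 8.7e-09). *PIC2*, a mitochondrial carrier of copper and phosphate, fell to 18.72 ± 1.01 CPM, against 38.87 ± 2.22 (log2 fold change -1.05, adjusted *P* = 6.9e-08). Of the 8 genes in this list, 7 fell and *SYG1*, an SPX-domain protein, did not pass (log2 fold change 0.05, adjusted *P* = 0.20), with a median of -0.35. The auxin and mock cultures stayed apart in 6 of the 8, against 78.6% of all features. Not all of the 7 therefore fell without overlap, and leaving out a culture could lower the number that passed to 6.

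The signalling genes moved less in the median than the phosphatases and helpers, and about as much as the other polyphosphate genes. Of 12 genes for Pho4 control and inositol pyrophosphate metabolism 7 fell, 1 rose and 4 did not pass, none reached a log2 fold change of 1 in either direction, and the median was -0.23. *DDP1*, a phosphatase that degrades inositol pyrophosphates and polyphosphate, had the lowest value, 42.70 ± 0.381 CPM with auxin, against 64.40 ± 0.964 with the mock (log2 fold change -0.59, adjusted *P* = 2.9e-08). *ARG82*, an inositol polyphosphate kinase, had the highest, 8.702 ± 0.446 CPM, against 6.317 ± 0.141 (log2 fold change 0.46, adjusted *P* = 5.3e-05).

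Of the 4 other polyphosphate genes 3 fell and 1 did not pass. *PPN1*, a vacuolar polyphosphatase, fell to 91.48 ± 1.44 CPM with auxin, against 137.1 ± 2.57 CPM with the mock (log2 fold change -0.58, adjusted *P* = 2.8e-08). *PPX1*, the cytosolic exopolyphosphatase, had 42.28 ± 1.45 CPM with auxin, against 40.99 ± 1.09 CPM (log2 fold change 0.04, adjusted *P* = 0.26). The median of this list was -0.26. Polyphosphate itself was not measured. Counted by domain, the 10 SPX-domain genes, 6 of which are among the transporters and *VTC* genes above, had 2 higher, 6 lower and 2 not past the adjusted *P*, with a median of -0.27. As 77.0% of all features passed and most of these genes were chosen on this contrast, nothing is read from that count.

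**Figure D5:**
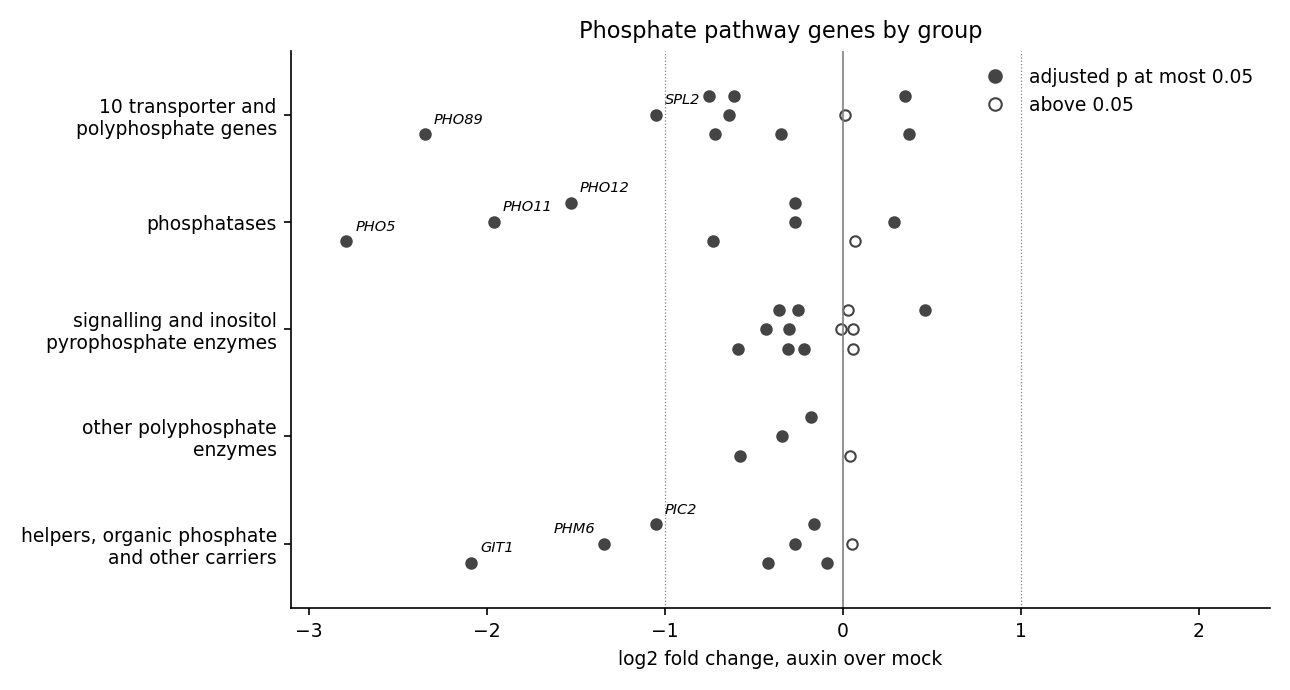
Log2 fold change of auxin over mock (x axis) of the 10 genes (top row) and of the genes in 4 other phosphate lists, 1 point per gene, filled where the adjusted *P* was 0.05 or less and open otherwise, with dotted lines at -1 and 1 and names for genes past them. The points past -1 are *PHO89* and *SPL2* in the top row and *PHO5*, *PHO11*, *PHO12*, *GIT1*, *PHM6* and *PIC2* below, and no point lies past 1.

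Profiles closest to 3 of the genes were found by Euclidean distance between log2 CPM values over the 6 cultures, each centred on its own mean. This likeness mostly follows the size of the treatment difference. Next to *PHO89* stood *MET6*, the methionine synthase gene (distance 0.362), *GIT1* (0.466), *GAP1*, the general amino acid permease (0.509), *PHO11* (0.519) and *CMC4* (0.549), with log2 fold changes between -2.17 and -1.94. For *PHO84* they were *ABP140* (0.026), *SBH2* (0.029), *FKS1* (0.033), *ECM33* (0.034) and *APD1* (0.036), and none of these belongs to the phosphate lists. For *VTC3* they were *KAR2* (0.043), *GDS1* (0.055), *YLR126C* (0.062), *IMD2* (0.065) and *TAL1* (0.066), also outside the lists. *IMD2* has near-identical relatives, so its reads are uncertain.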

How the data were processed

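Total RNA from 6 cultures was depleted of rRNA and made into directional libraries. Per the labels and the study's methods, the authors trimmed the reads with Trimmomatic, aligned them with STAR to R64 (sacCer3) and deposited whole-number gene counts, not normalised. The study states that molecular identifiers were used in the RNA-Seq analysis. Whether duplicates were removed with them before counting, and the annotation release, are not given in the sources used here. Counts that fit several genes are not assigned by this counting, which lowers near-identical genes. Columns were assigned by name. Of 7445 features, 6692 had a count and 6397 passed filterByExpr.

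From the deposited counts, auxin was compared with mock in edgeR 4.0.16 under R 4.3.3 (TMM factors, glmQLFit, glmQLFTest, treatment as the only term, Benjamini-Hochberg adjustment over all tested features). Features passed at an adjusted *P* of 0.05 or less, and those past the fold limit also had a log2 fold change of 1 or more in size. CPM divide each count by the culture's total times its TMM factor, per 1000000. SE is the absolute log2 fold change divided by the square root of the F statistic of glmQLFTest. CPM per kb divides by coding length. TMM factors were 1.086 to 1.093 with auxin and 0.9016 to 0.9276 with the mock. Replicates are biological repeats by their titles. Chi-square per degree of freedom between replicate pairs was 6.3 to 35.4. That is more than counting noise only if the counts are independent reads, which their excess over the stated read pairs leaves uncertain.

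The genes and lists were chosen with earlier results of these data known. Names follow a rule: the 10 genes, *RIO1*, the highest and lowest gene of each list and all past the fold limit, the 5 profiles nearest to each of *PHO84*, *PHO89* and *VTC3*, and the mating type markers. *YML122C*, the divergent neighbours and genes quoted as background were named outside it. Motifs and coordinates came from the R64 reference with Biopython 1.88, and tables and plots from Python 3.11.15, pandas 2.3.3 and matplotlib 3.10.9. The test was first checked on simulated counts. The settings varied were the scaling (RLE, upper quartile, total counts alone), the filter (none, or 10 counts in every culture), the test (DESeq2 1.42.0, glmTreat), the replicate number as a block, no division by length, and leaving out each culture.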

Additional observations from a re-analysis of the deposited data

How the results depend on the processing

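Total-count scaling moved the median log2 fold change of all features to 0.25. It left 1 of the 10 genes past the fold limit, in place of 2, and gave 4131 higher and 1072 lower features, against 2462 and 2465, with 65 lower past the fold limit, against 163. The log2 ratios of the sums became -0.11 for *PHO84* and *PHO89*, 0.61 for *PHO87* and *PHO90*, and -0.43 for the *VTC* genes, against -0.36, 0.37 and -0.67. *PHO91* passed the adjusted *P* under this scaling. Of the lists, 6 phosphatases, 8 signalling genes, 4 other polyphosphate genes and 6 helpers passed in either direction, against 7, 8, 3 and 7. Of all features, 5203 passed, against 4927.

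In glmTreat, which tests against an absolute log2 fold change of 1 and so asks for more, 1 of the 10 genes passed (*PHO89*), 0 higher and 1 lower, and 344 of all features did, 250 higher and 94 lower. Of the lists, 3 phosphatases, 0 signalling genes, 0 other polyphosphate genes and 2 helpers passed, against 7, 8, 3 and 7 in the test against no change. Without division by length the *PHO84* share of transporter RNA differed by -5.37 percentage points, against -3.88.

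Replicate numbers are shared by both treatments, and deviations of same-numbered cultures correlated at 0.152, -0.0286 and 0.23. Auxin cultures 1 and 3 correlated best with the mock culture of their own number, and auxin culture 2 with mock culture 1 (0.127). Whether the numbers pair the cultures was not tested, and the main fit had treatment as its only term. With the number as a block, 9 of the 10 genes passed and 2 were past the fold limit, as without it, and 5159 features passed, against 4927.

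Leaving out each culture in turn kept 9 genes past the adjusted *P* and 2 past the fold limit each time. Over all features, 4617 to 4876 passed and 646 to 702 were past the fold limit. The genes were chosen on this contrast, so nothing is read from the steady counts. Log2 fold changes ranged from -0.36 to -0.34 for *PHO84*, -2.39 to -2.32 for *PHO89* and -1.08 to -1.03 for *SPL2*. The signalling list ranged from 8 to 9 genes past the adjusted *P* and the helper list from 6 to 7. The other alternatives (RLE, upper-quartile, both filters, DESeq2) gave each of the 10 genes the same direction and call. With 3 cultures of 1 strain per treatment, differences rest on the spread between those cultures.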

Other observations

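Genes other than the 10 were also sorted by the number of CACGTG cores in the 1000 bases before their start codon, after the cores of the 10 genes had been seen. Of 76 tested protein-coding genes with at least 2 cores, 43 (56.6%) were lower with auxin past the adjusted *P* and 17 (22.4%) were higher, with a median log2 fold change of -0.14. Among 550 genes with 1 core, 48.4% were lower and 30.9% higher, with a median of -0.08. The 5173 genes with no core were lower in 40.7% and higher in 36.2%, with a median of -0.02. The phosphate genes of the 4 lists are among these genes, and Cbf1 sites share the core, so the counts do not separate the factors. These are counts over genes of the same 6 cultures, and no test was made of them.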
